A study of Fragaria x ananassa with 9 samples.

Results

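The comparison described here set petals at the big bud stage (PF_D) against petals at the beginning of coloration (PF_Z) in the pink-flowered strawberry (PFS) cultivar Sijihong. PFS cultivars are ornamental strawberries bred from crosses between garden strawberry and marsh cinquefoil, and Sijihong has dark red flowers. There were 3 biological replicates of each stage, PF_D1 to PF_D3 and PF_Z1 to PF_Z3. Both groups came from the same cultivar and differed in stage, and 3 libraries of the young bud (PF_L) entered the model to estimate the spread. Transcript abundance had been measured by RNA sequencing as TPM, a share of a fixed total that is scaled for transcript length, for 50285 unigenes, each the longest transcript of a cluster in a de novo assembly. Unigenes that reached 1 TPM in 3 or more of the 9 libraries were compared, 47924 of the 50285 listed (95.3%). Names were taken from the closest protein match, often in another species, and stand for a likely relative only. In an octoploid plant, near-identical gene copies can be merged into 1 unigene or split over several.

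The pink to red petal color of PFS comes from anthocyanins, which are made in the cytosol from phenylalanine and stored in the vacuole. Chalcone synthase (CHS) opens the flavonoid pathway. Dihydroflavonol 4-reductase (DFR), anthocyanidin synthase (ANS) and an anthocyanidin glucosyltransferase (the enzyme of the maize gene BZ1) then perform the late steps that give a colored and stable pigment. Transcription factors of the MYB and bHLH families switch these enzymes on in many plants. In a bud that is about to open, petal cells also enlarge by taking up water and sugar while the wall is loosened, and they build the waxy surface of the mature petal.

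Values were compared as log2(TPM + 1) with limma. Calls required both a Benjamini-Hochberg adjusted p under 0.05 and a log2 fold change of 1 or more, up or down. Every fold change below is on that scale, PF_D minus PF_Z, where the added 1 shrinks the changes of genes at a few TPM. By these limits 8608 unigenes were called (18.0%), of which 4262 were higher in PF_D (8.89% of those tested) and 4346 lower (9.07%). The 3 PF_D values and the 3 PF_Z values did not overlap for 40.7% of all unigenes tested, and groups of 3 cannot give an exact permutation p below 0.1. The median log2 fold change of all unigenes was 0.08. The unigenes called higher summed to 231329 TPM in PF_D, against 58897 TPM in PF_Z. Those called lower summed to 65312 TPM in PF_D, against 273728 TPM in PF_Z. As each library has the same total, a rise of very abundant transcripts lowers the TPM of others. Calls were more frequent among abundant unigenes, at 35.7% of those with a mean of 100 TPM or more, against 17% of those from 1 to 10 TPM.

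**Figure D1:**
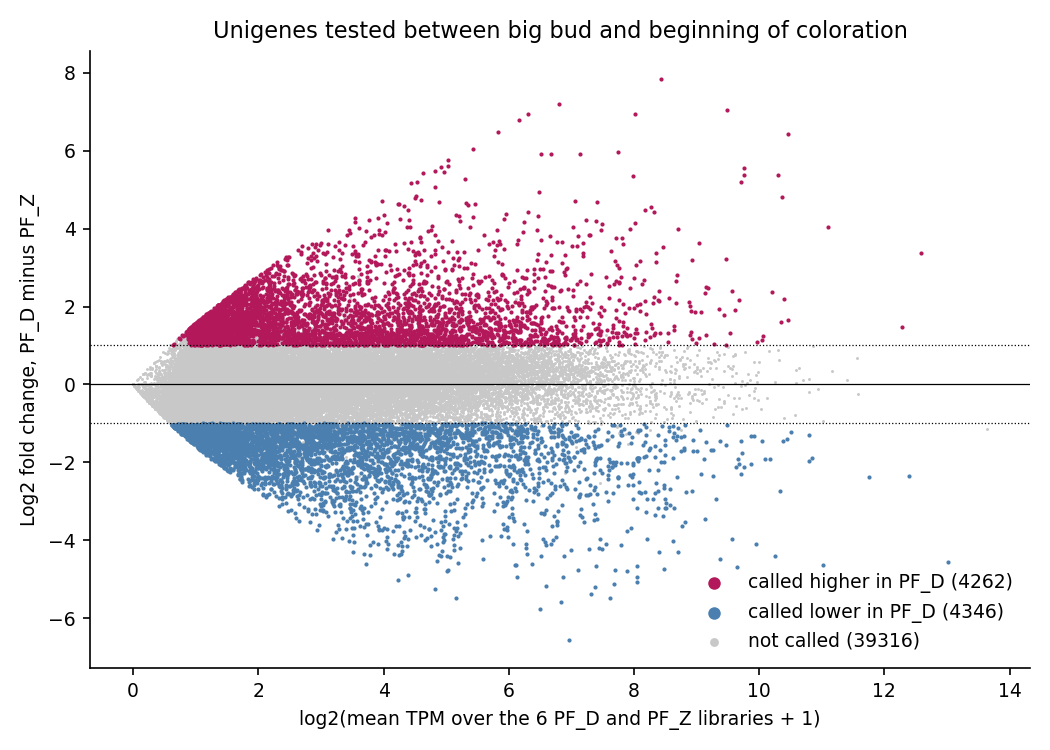
Each point is 1 of the 47924 unigenes tested, with log2 of its mean TPM plus 1 over the 6 libraries on the x axis and its log2 fold change, PF_D minus PF_Z, on the y axis. The 4262 unigenes called higher and the 4346 called lower spread over the whole range of abundance, and dotted lines mark a log2 fold change of 1 in each direction.

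Totals ran from 993148 to 994910 TPM per library. Correlations of log2 values across unigenes were 0.928 to 0.951 within PF_D, 0.919 to 0.932 within PF_Z and 0.795 to 0.861 between the stages. On the first principal component the PF_D libraries lay at 95.4 to 121 and the PF_Z libraries at -77.1 (PF_Z3), -115 and -123. PF_Z3 was thus the PF_Z library nearest to PF_D, and without it 4935 unigenes were called higher and 4599 lower. Library PF_D2 was the lowest of the PF_D libraries for many stress-related and photosynthetic genes described below, and without it 3421 unigenes were called higher and 3547 lower.

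The petal label was checked against the B-class floral genes, which specify petals and stamens. The most abundant of them, a DEFICIENS-like unigene (TRINITY_DN23186_c0_g1), stood at 922, 1208 and 1094 TPM in PF_D, against 857, 815 and 1051 TPM in PF_Z. Its log2 fold change was 0.24 (SE 0.18) and it was not called. Of 15 petal identity genes tested, 5 were called higher and none lower (1 lower without PF_Z3 or PF_D1), and their summed level was 4146 to 4921 TPM in PF_D and 4591 to 5582 TPM in PF_Z. The rises included FBP1-like unigenes that share an assembly cluster with AGL65, described below. Among uncalled unigenes, FBP2 (TRINITY_DN21118_c0_g1), the most abundant of these genes, changed by -0.62 (SE 0.17). A second FBP2 unigene (TRINITY_DN21396_c1_g1) changed by 0.57 (SE 0.18). The stamen and carpel gene AG (TRINITY_DN15050_c0_g1), a C-class regulator, was at 3.45, 4.78 and 5.13 TPM in PF_D and 2.91, 2.76 and 6.6 TPM in PF_Z. More abundant was AGL1 (TRINITY_DN18146_c1_g3) of the same list, at 39.2, 29.4 and 36.1 TPM in PF_D and 25.3, 29.7 and 38.8 TPM in PF_Z. None of 5 stamen and carpel genes was called, and they summed to 38.2 to 46.6 TPM in PF_D and 30.2 to 56.8 TPM in PF_Z.

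Markers of anther and pollen were low but moved between single libraries. The pollen protein LAT52 (TRINITY_DN11388_c0_g1) was at 63.8, 7.82 and 31.5 TPM in PF_D, against 2.94, 4.77 and 2.04 TPM in PF_Z (log2 fold change 2.69, SE 0.60, adjusted p = 0.0084), with PF_D1 far above PF_D2. AMS (TRINITY_DN14023_c0_g1), a regulator of the tapetum, was at 0.75, 0.15 and 0.97 TPM in PF_D and 4.84, 2.27 and 3.12 TPM in PF_Z. Of 21 such markers, 4 were called higher and 8 lower, and their sum was 144 to 250.0 TPM in PF_D and 134 to 194 TPM in PF_Z. No marker of this list was at 0 in all 6 libraries among those tested, and the part of such cells in the results was not tested.

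Among the late enzymes of the anthocyanin pathway, 1 leading unigene of each step rose. DFR (TRINITY_DN14121_c0_g3), which reduces dihydroflavonols, was at 259.6, 814 and 638 TPM in PF_D, against 87.6, 64.5 and 159 TPM in PF_Z (log2 fold change 2.40, SE 0.47, adjusted p = 0.0045). ANS (TRINITY_DN20632_c0_g1), which makes the colored anthocyanidin, was at 736, 1014 and 758 TPM in PF_D, against 288, 154 and 261 TPM in PF_Z (log2 fold change 1.87, SE 0.36, adjusted p = 0.0041). GT1 (TRINITY_DN20511_c0_g4), an anthocyanidin 3-O-glucosyltransferase that carries the number of BZ1, was at 328, 513 and 315 TPM in PF_D, against 60.9, 35.9 and 74.2 TPM in PF_Z (log2 fold change 2.76, SE 0.29, adjusted p = 0.00014). In all 3 genes the lowest PF_D library lay above the highest PF_Z library, PF_D2 was the highest library and PF_Z2 the lowest. In the young bud the same unigenes averaged 0.92, 3.13 and 1.94 TPM.

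The study also listed quantitative PCR primers for pigment genes of these names, which are shown because they set the stretch of each transcript that is amplified. They are given from the supplement to the paper as 5′ to 3′ sequences, in lower case with no base marked. The supplement does not pair them with unigenes, so for DFR, ANS, bHLH79 and bHLH148 the match to the unigenes described here rests on the gene name. No unigene tested is named BZ1. For the FpBZ1 primers the 4 unigenes with the pathway number of BZ1, GT1 among them, are candidates only.
FpDFR forward: gccttccacagcgtcaagtg
FpDFR reverse: tcgtcggatcatggctggtc
FpANS forward: atcttctccttgggcggctc
FpANS reverse: aacatggttcccggtctgca
FpBZ1 forward: aacttgggctcctcagtcgg
FpBZ1 reverse: ctccctccctgccacttgtt
FpbHLH79 forward: tcgggcagtttggggatgtt
FpbHLH79 reverse: aatcacccgcgccaatgttg
FpbHLH148 forward: gatcaagttccggcagcacc
FpbHLH148 reverse: aaccccttccccttcaaccg
All 10 primers have 20 bases, and 55% to 60% of their bases are g or c.

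The other members of the late list were less abundant. Of 12 unigenes with the pathway numbers of DFR, ANS and BZ1, 5 were called higher and 1 lower, with a median log2 fold change of 0.66. Their sum was 2048.1 TPM in PF_D and 554 TPM in PF_Z. The fourth rise, SRG1 (TRINITY_DN21027_c0_g1), is named for a senescence-related oxidase and was at 53.8, 55.7 and 69.6 TPM in PF_D, against 17.4, 17.1 and 20.7 TPM in PF_Z. The fifth was a second, minor DFR unigene (TRINITY_DN14121_c0_g2) at 1.08, 3.59 and 2.07 TPM in PF_D, against 0.22, 0.49 and 0.63 TPM in PF_Z, and its call was lost when any PF_Z library, PF_D2 or PF_D3 was left out. The unigene that fell (TRINITY_DN17621_c1_g1) is described as a tetraketide alpha-pyrone reductase, an enzyme of pollen wall synthesis, and not as a pigment enzyme. A second ANS (TRINITY_DN21027_c0_g2) was at 9.3, 11.8 and 12.97 TPM in PF_D and 17.1, 12.1 and 16.2 TPM in PF_Z, and another DFR (TRINITY_DN25108_c0_g1) was at 29.6, 34.5 and 37.5 TPM in PF_D and 19.4, 19.96 and 20.5 TPM in PF_Z, neither of them called. GT7 (TRINITY_DN9017_c0_g2) stayed between 0.42 and 2.3 TPM in all 6 libraries. Kaempferol galactosyltransferase (TRINITY_DN20511_c0_g3), from the same cluster as GT1, was at 24.4, 53.8 and 52.5 TPM in PF_D and 37.8, 26.6 and 53.04 TPM in PF_Z, a second unigene of that description (TRINITY_DN20511_c0_g2) was at 35.9, 128 and 119 TPM in PF_D and 50.1, 39.6 and 78.7 TPM in PF_Z, and neither was called. Without PF_D1 the second was called higher (log2 fold change 1.18). A unigene named ANR (TRINITY_DN16693_c0_g1), for the anthocyanidin reductase that leads to proanthocyanidins, entered the list by its pathway number. It was at 6.19, 5.48 and 5.19 TPM in PF_D and 3.78, 2.83 and 3.58 TPM in PF_Z and was not called.

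The early enzymes, which were abundant at both stages, did not pass the test in their leading unigenes. CHS1 (TRINITY_DN26374_c0_g4) was at 2746, 4464 and 3829 TPM in PF_D, against 2614, 1386 and 3161 TPM in PF_Z. Its groups overlapped and it was not called (log2 fold change 0.68, SE 0.41, adjusted p = 0.25). The flavanone 3-hydroxylase unigene (TRINITY_DN19052_c0_g2) was at 334, 410.4 and 442 TPM in PF_D, against 562, 428 and 690.0 TPM in PF_Z (log2 fold change -0.48, SE 0.26). CHI1 (TRINITY_DN20802_c1_g2), a chalcone isomerase, was at 91.95, 133 and 136 TPM in PF_D, against 268, 173 and 267 TPM in PF_Z, and its log2 fold change of -0.96 (SE 0.26) fell just short of the limit. Of 17 early flavonoid unigenes 2 were called higher and 1 lower, with 1 higher without PF_D3 and 0 lower without PF_Z1 or PF_D1. The 19 unigenes of the entry into phenylpropanoids split evenly, with 3 higher and 3 lower.

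Enzymes that decorate or move flavonoids changed in both directions. UGT75L6 (TRINITY_DN11812_c0_g1), named for a crocetin glucosyltransferase, was at 30.5, 39.5 and 48.6 TPM in PF_D, against 1.5, 0.86 and 2.0 TPM in PF_Z (log2 fold change 4.05, SE 0.26, adjusted p = 9.6e-06). Of 38 modifying enzymes, 10 were called higher and 9 lower. The most abundant glutathione transferase (TRINITY_DN20318_c0_g1), of the enzyme class that binds anthocyanins on the way to the vacuole, was at 935, 965 and 1006 TPM in PF_D, against 599, 404 and 765 TPM in PF_Z. Its log2 fold change of 0.76 (SE 0.21) was below the limit. Of 43 glutathione transferases, 5 were called higher and 12 lower, and of 62 MATE transporters, 4 and 11. DTX41 (TRINITY_DN21309_c0_g4), a relative of the transporter that loads flavonoids into seed coat vacuoles in Arabidopsis, was at 6.95, 11.03 and 9.02 TPM in PF_D, against 0.37, 0.59 and 1.2 TPM in PF_Z (log2 fold change 2.55, SE 0.29, adjusted p = 0.00024).

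**Figure D2:**
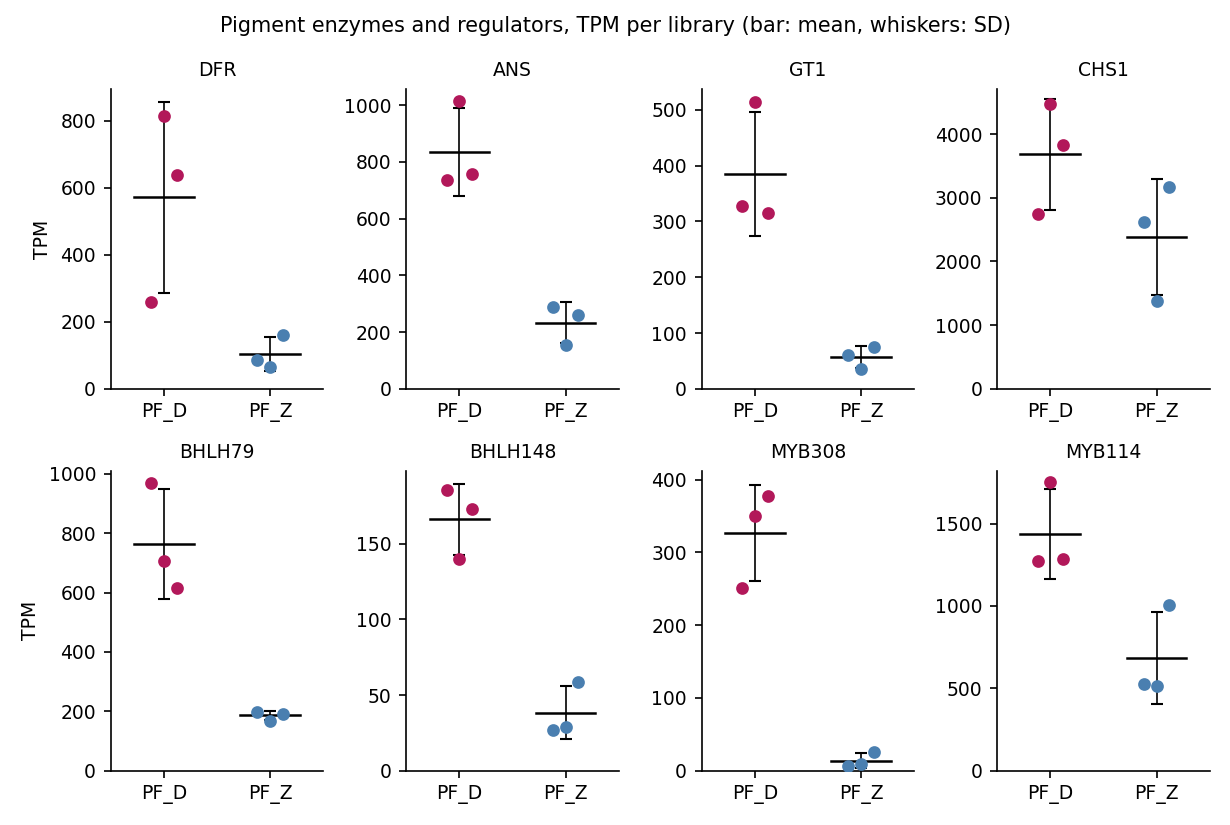
TPM on the y axis in the 3 PF_D libraries (left in each panel) and the 3 PF_Z libraries (right) for 8 pigment enzymes and regulators, with the mean as a bar and the SD as whiskers. The groups do not overlap for DFR, ANS, GT1, BHLH79, BHLH148, MYB308 and MYB114, and they overlap for CHS1.

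The bHLH factors that the study took up were higher in PF_D. The study had picked them from these same libraries for their high level in PF_D. Their rise was thus part of that choice and is not independent of it. BHLH79 (TRINITY_DN21463_c0_g1) was at 970.1, 707 and 614 TPM in PF_D, against 197, 169 and 192 TPM in PF_Z (log2 fold change 2.01, SE 0.19, adjusted p = 8.5e-05). BHLH148 (TRINITY_DN23837_c0_g1) was at 186, 139.9 and 173 TPM in PF_D, against 27.1, 29.1 and 58.5 TPM in PF_Z (log2 fold change 2.17, SE 0.28, adjusted p = 0.00041). GAM1 (TRINITY_DN25653_c0_g1), a relative of the gibberellin-regulated GAMYB, was at 11.8, 16.04 and 13.01 TPM in PF_D and 4.62, 6.12 and 10.9 TPM in PF_Z, and with a log2 fold change of 0.90 (SE 0.28, adjusted p = 0.04) it stayed under the limit of fold change. No unigene tested carried the names MYB1, MYB11 or BHLH77, and these genes are not analysed here.

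Other MYB genes moved further in both directions. MYB308 (TRINITY_DN12288_c0_g1) and MYB330 (TRINITY_DN24694_c0_g1), named for snapdragon genes that repress phenolic synthesis, rose together. MYB308 was at 251, 349 and 378 TPM in PF_D, against 6.18, 9.47 and 25.5 TPM in PF_Z (log2 fold change 4.68, SE 0.39, adjusted p = 4.2e-05), and MYB330 was at 187, 251 and 288 TPM in PF_D, against 5.89, 14.2 and 28.7 TPM in PF_Z (log2 fold change 4.04, SE 0.42). MYB114 (TRINITY_DN21029_c0_g2), named for an anthocyanin regulator of Arabidopsis, was the most abundant MYB, at 1276, 1754 and 1285 TPM in PF_D, against 528, 513 and 1007 TPM in PF_Z (log2 fold change 1.13, SE 0.27, adjusted p = 0.012). The call of MYB114 was lost without PF_Z1, PF_Z2 or PF_D2. MYB305 (TRINITY_DN15202_c1_g1), a flower-specific factor in snapdragon, was at 1088, 1031 and 988 TPM in PF_D, against 271, 232 and 317 TPM in PF_Z (log2 fold change 1.93, SE 0.16). In the other direction, MYB28 (TRINITY_DN21524_c1_g3) fell to 8.5, 1.72 and 4.24 TPM in PF_D, against 138, 190.0 and 234 TPM in PF_Z (log2 fold change -5.16, SE 0.38, adjusted p = 2e-05). TT2 (TRINITY_DN21524_c1_g1) from the same cluster, named for a proanthocyanidin regulator, was at 0.49, 0.18 and 0.68 TPM in PF_D, against 17.7, 22.6 and 35.2 TPM in PF_Z (log2 fold change -4.14, SE 0.24). Of 105 MYB factors 21 were called higher and 28 lower (median 0.01), and of 139 bHLH factors 27 and 28. The most abundant bHLH gene, BPE (TRINITY_DN25467_c0_g2), is named for the Arabidopsis factor that limits petal cell size. It was at 1439, 1321 and 1064 TPM in PF_D, against 124, 136 and 147 TPM in PF_Z (log2 fold change 3.21, SE 0.20, adjusted p = 8.6e-06).

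Genes of sugar use and of proton and water transport had more rises than falls, although the share of rises among the proton pumps was close to that of all unigenes. The acid invertase INVA (TRINITY_DN24289_c0_g1), which splits sucrose in the vacuole, was at 462, 449.7 and 352 TPM in PF_D, against 5.42, 4.5 and 7.39 TPM in PF_Z (log2 fold change 5.97, SE 0.20, adjusted p = 2.9e-07). Of 18 invertases and sucrose synthases 4 were called higher and 2 lower. Plasma membrane proton pumps, which acidify the wall and drive uptake, rose in 6 unigenes. The most abundant, PMA4 (TRINITY_DN12715_c0_g1), was at 713, 479.8 and 588 TPM in PF_D, against 53, 60.98 and 53.7 TPM in PF_Z (log2 fold change 3.37, SE 0.18, adjusted p = 4e-06). The vacuolar pyrophosphatase AVP1 (TRINITY_DN22446_c0_g1) was at 118, 138 and 134 TPM in PF_D, against 32.9, 27.95 and 36.2 TPM in PF_Z (log2 fold change 1.98, SE 0.14). Of 54 proton pump unigenes, 7 were called higher and none lower, a share of rises (13%) not far from the 8.89% of all unigenes. Their summed TPM was 5550.2 in PF_D and 2696 in PF_Z. The tonoplast aquaporin TIP2-1 (TRINITY_DN13006_c1_g1) rose to 468.2, 404 and 284 TPM in PF_D, against 67.1, 131 and 98.8 TPM in PF_Z (log2 fold change 1.97, SE 0.26, adjusted p = 0.00046). Its relative TIP1-2 (TRINITY_DN22492_c0_g1) fell to 8.45, 5.39 and 11.9 TPM in PF_D, against 235, 351 and 86.6 TPM in PF_Z (log2 fold change -4.40, SE 0.57, adjusted p = 0.00045). Among 30 aquaporins 8 were called higher and 2 lower, or 1 lower without PF_Z1, PF_Z2, PF_D2 or PF_D3. Among 51 sugar transporters 11 were called higher and 9 lower.

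Wall-loosening and pectin-cleaving enzymes included some of the largest rises of the whole comparison. The polygalacturonase At1g48100 (TRINITY_DN24511_c0_g1), which cuts pectin, was at 344, 639 and 551 TPM in PF_D, against 2.44, 5.0 and 2.24 TPM in PF_Z (log2 fold change 6.93, SE 0.28, adjusted p = 1e-06). A pectate lyase (TRINITY_DN17750_c0_g2) was at 546, 693 and 579 TPM in PF_D, against 22.6, 20.2 and 42.5 TPM in PF_Z (log2 fold change 4.44, SE 0.24, adjusted p = 4.2e-06), and a near relative (TRINITY_DN18392_c0_g2) changed by 4.48 (SE 0.24). These enzymes act on the middle lamella between cells. The pectin acetylesterase PAE8 (TRINITY_DN22251_c0_g1) was at 477, 501 and 505 TPM in PF_D, against 13.9, 10.4 and 9.54 TPM in PF_Z (log2 fold change 5.35, SE 0.17, adjusted p = 2.9e-07), while another PAE8 unigene (TRINITY_DN26738_c1_g1) was at 454, 376 and 382 TPM in PF_D and 294, 399 and 255 TPM in PF_Z and was not called. The most abundant expansin, EXPA6 (TRINITY_DN20110_c1_g1), was at 1124, 1320.4 and 1227 TPM in PF_D, against 278, 247 and 486 TPM in PF_Z (log2 fold change 1.92, SE 0.28, adjusted p = 0.00095). Expansins loosen the wall without cutting it. EXPA8 (TRINITY_DN22109_c0_g1) changed by 3.59 (SE 0.37) and EXPB3 (TRINITY_DN18730_c0_g1) by -2.85 (SE 0.16).

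By counts, 21 of 64 polygalacturonases and pectate lyases were called higher and 9 lower, although only 4 lower without PF_Z1. Their summed TPM was 3861 in PF_D and 1371 in PF_Z. Of 57 pectinesterases and inhibitors 15 were higher and 8 lower, and of 24 expansins 8 and 4. Cellulose synthases moved the other way, with 1 of 43 called higher and 17 lower (median -0.69). Without PF_Z3 or PF_D1 3 were higher, and without PF_D2 or PF_D3 2. Among those lower was CESA8 (TRINITY_DN24988_c0_g1), a subunit of secondary wall synthesis, at 1.45, 0.72 and 1.88 TPM in PF_D, against 10.5, 11.4 and 14.9 TPM in PF_Z (log2 fold change -2.52, SE 0.27, adjusted p = 0.00015). CESA3 (TRINITY_DN27223_c0_g2), a subunit of primary walls and the most abundant member, was at 173, 228 and 195 TPM in PF_D, against 108, 99.7 and 132 TPM in PF_Z, and its log2 fold change of 0.80 (SE 0.17) was under the limit. The sum over the family was 1129.9 TPM in PF_D and 1125 TPM in PF_Z. Tubulins, the subunits of the microtubules that guide wall deposition, rose in 6 of 25 unigenes and fell in none. The most abundant of those that rose, TUBA (TRINITY_DN16768_c0_g3), was at 688, 906 and 775 TPM in PF_D, against 188, 177 and 295 TPM in PF_Z (log2 fold change 1.87, SE 0.21, adjusted p = 0.00023).

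**Figure D3:**
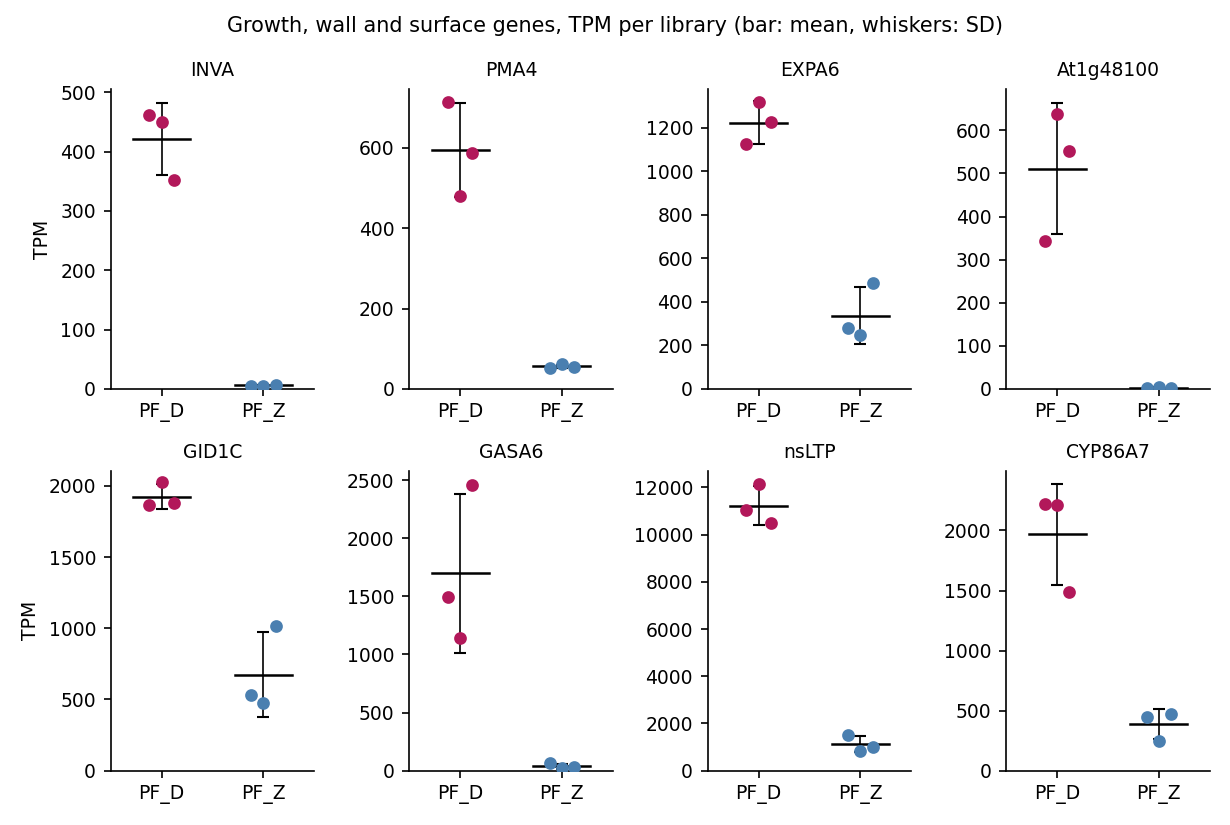
TPM on the y axis in the 3 PF_D libraries (left in each panel) and the 3 PF_Z libraries (right) for 8 genes of growth, wall and surface, with the mean as a bar and the SD as whiskers; nsLTP is the abundant lipid-transfer protein. The groups do not overlap in any of the 8 panels, and PF_D is the higher group in each.

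Laccases, which polymerize phenolics, included unigenes of 1 name that moved in opposite directions. The largest fall of any unigene with a gene name was that of LAC9, which (TRINITY_DN14310_c1_g1) stood at 0.82, 0.14 and 0.25 TPM in PF_D, against 36.1, 49.95 and 120.0 TPM in PF_Z (log2 fold change -5.48, SE 0.37, adjusted p = 1.2e-05). A second LAC9 unigene (TRINITY_DN23279_c1_g1) rose to 628, 1571 and 735 TPM in PF_D, against 146, 115 and 228 TPM in PF_Z (log2 fold change 2.51, SE 0.34, adjusted p = 0.00055). Of 47 laccases 6 were called higher and 12 lower.

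Among auxin genes, the SAUR family and the auxin response factors had more rises than falls. The SAUR genes, which encode small proteins that activate proton pumps in elongating Arabidopsis organs, had 19 of 41 members called higher and 3 lower, with a median of 0.98 against 0.08 for all unigenes. SAUR40 (TRINITY_DN22552_c0_g4) was at 74.2, 131 and 126 TPM in PF_D, against 6.09, 6.71 and 15.7 TPM in PF_Z (log2 fold change 3.48, SE 0.33, adjusted p = 9e-05). SAUR50 (TRINITY_DN12110_c0_g1) fell to 3.21, 2.03 and 8.99 TPM in PF_D, against 17.97, 19.8 and 45.96 TPM in PF_Z (log2 fold change -2.39, SE 0.44, adjusted p = 0.0031). Most members were at a few TPM, and with the filter raised to 5 TPM 10 were called higher. Several of the rises were in unigenes that share an assembly cluster, so the count may hold pieces of the same gene. The family summed to 316 TPM in PF_D1, against 593 TPM in PF_D2 and 667 TPM in PF_D3. Aux/IAA proteins repress auxin responses, and 5 of 20 were higher and 6 lower. The most abundant, AUX28 (TRINITY_DN20042_c0_g2), was at 854, 958 and 1007 TPM in PF_D, against 187, 162 and 205 TPM in PF_Z (log2 fold change 2.34, SE 0.16, adjusted p = 1.2e-05). ARF9 (TRINITY_DN27270_c1_g1), an auxin response factor, was at 197, 199.7 and 248 TPM in PF_D, against 14.2, 20.7 and 29.3 TPM in PF_Z (log2 fold change 3.32, SE 0.22, adjusted p = 1.3e-05). A second ARF9 unigene (TRINITY_DN24874_c0_g1) fell to 2.91, 3.31 and 4.55 TPM in PF_D, against 16.8, 16.2 and 27.3 TPM in PF_Z (log2 fold change -2.18, SE 0.22, adjusted p = 0.00011). Of 41 auxin response factors 7 were called higher and 2 lower, with a median of -0.23.

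Genes of gibberellin perception that passed the test were all higher. GID1C (TRINITY_DN18298_c0_g1), a receptor of the hormone, was at 1865, 2025 and 1880.2 TPM in PF_D, against 535, 473 and 1016 TPM in PF_Z (log2 fold change 1.59, SE 0.26, adjusted p = 0.0018). The DELLA repressor GAIPB (TRINITY_DN24493_c0_g3), a target that the receptor marks for degradation, was at 113, 132 and 115 TPM in PF_D, against 28.6, 39.3 and 79.97 TPM in PF_Z (log2 fold change 1.40, SE 0.31). Receptor and DELLA genes gave 4 rises and no fall among 9. GASA6 (TRINITY_DN17721_c0_g1), a gibberellin-regulated small protein, rose to 1493, 1141 and 2459 TPM in PF_D, against 62.5, 19.8 and 29.6 TPM in PF_Z (log2 fold change 5.55, SE 0.39, adjusted p = 1.5e-05). GASA14 (TRINITY_DN19940_c0_g1) of the same family fell to 15.3, 4.28 and 10.5 TPM in PF_D, against 112, 250.0 and 183 TPM in PF_Z (log2 fold change -4.12, SE 0.39, adjusted p = 8.9e-05), and 3 of the 6 GASA unigenes were lower.

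Jasmonate genes that passed the test were more often lower than higher, although unigenes of 1 enzyme could move in opposite directions. Jasmonate is made from linolenic acid by lipoxygenase (LOX), allene oxide synthase, allene oxide cyclase (AOC) and OPR3, and it regulates stress responses and the last phase of petal growth in Arabidopsis. The lipoxygenase LOX3.1 (TRINITY_DN26789_c0_g1) fell to 9.66, 7.29 and 9.23 TPM in PF_D, against 251, 309 and 234 TPM in PF_Z (log2 fold change -4.77, SE 0.48, adjusted p = 0.00011). LOX2.1 (TRINITY_DN26051_c0_g1), the most abundant member of the list, was called higher. It was at 1032, 1717 and 1305 TPM in PF_D, against 503, 561 and 843 TPM in PF_Z (log2 fold change 1.09, SE 0.24, adjusted p = 0.0088). AOC4 (TRINITY_DN18449_c1_g1) fell to 87.95, 79.1 and 91.4 TPM in PF_D, against 1660.0, 1743 and 866 TPM in PF_Z (log2 fold change -3.97, SE 0.25, adjusted p = 9.9e-06). A second AOC4 unigene (TRINITY_DN11857_c0_g1) rose to 499, 957 and 652 TPM in PF_D, against 108, 76.96 and 149 TPM in PF_Z (log2 fold change 2.65, SE 0.27, adjusted p = 0.00012). The same split was seen within 1 assembly cluster, where AOC (TRINITY_DN27103_c0_g3) changed by 3.91 (SE 0.21) and AOC3 (TRINITY_DN27103_c0_g1) by -3.38 (SE 0.41). OPR3 (TRINITY_DN23977_c0_g3), a reductase in the peroxisome, was at 45.3, 46.1 and 54.6 TPM in PF_D, against 266, 216 and 121 TPM in PF_Z (log2 fold change -1.96, SE 0.27). LOX1 (TRINITY_DN22494_c0_g3), a 9-lipoxygenase that lies outside the jasmonate route, was at 73.2, 119 and 126 TPM in PF_D, against 7.07, 4.53 and 11.1 TPM in PF_Z. Of the 42 unigenes of jasmonate synthesis 9 were higher and 17 lower. Without the 6 9-lipoxygenases, 6 of 36 were higher and 16 lower (median -0.75). These 36 include reductases named OPR1, OPR2, OPR8 and OPR11 besides OPR3. The reductases other than OPR3 that were called were all lower. The summed TPM of the 36 was 4030 to 4605 in the PF_D libraries and 4205 to 5664 in the PF_Z libraries, ranges that overlap. CYP94C1 (TRINITY_DN23574_c0_g2), which oxidizes the active hormone and is induced by it in Arabidopsis, fell to 80.1, 18.2 and 73.6 TPM in PF_D, against 2393, 1789 and 466 TPM in PF_Z (log2 fold change -4.69, SE 0.65, adjusted p = 0.00066). Library PF_Z3 was the lowest PF_Z library for AOC4, AOC3, OPR3 and CYP94C1, and it still lay above each PF_D library.

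The JAZ (TIFY) repressors and MYC2, the factor they hold back, are themselves induced by jasmonate in Arabidopsis. Of 20 such unigenes 13 were called lower and 2 higher (median -1.73), with 1 higher without PF_Z1, PF_Z2, PF_D1 or PF_D2. TIFY9 (TRINITY_DN23776_c0_g1) was at 20.2, 6.22 and 11.2 TPM in PF_D, against 402, 342 and 219 TPM in PF_Z (log2 fold change -4.66, SE 0.43, adjusted p = 7.8e-05). TIFY10B (TRINITY_DN21290_c1_g1), the most abundant member, was at 623, 479.9 and 533 TPM in PF_D, against 1609, 1571 and 969.7 TPM in PF_Z (log2 fold change -1.31, SE 0.27, adjusted p = 0.0055). The stages did not overlap for either gene. TIFY6B (TRINITY_DN21660_c0_g1) went the other way, at 139, 137 and 118 TPM in PF_D, against 46.4, 46.6 and 48.9 TPM in PF_Z (log2 fold change 1.45, SE 0.12, adjusted p = 4.2e-05).

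WRKY factors, many of which act in stress and defence, fell more often than they rose. WRKY53 (TRINITY_DN15503_c0_g1), a regulator of defence and senescence in Arabidopsis, was at 17.9, 11.6 and 14.2 TPM in PF_D, against 443, 583 and 519 TPM in PF_Z (log2 fold change -5.06, SE 0.42, adjusted p = 3.8e-05). WRKY24 (TRINITY_DN16022_c0_g1) was at 19.2, 12.7 and 14.4 TPM in PF_D, against 325, 559.6 and 483 TPM in PF_Z (log2 fold change -4.78, SE 0.36, adjusted p = 2.3e-05), and WRKY33 (TRINITY_DN27462_c0_g2), which acts against necrotrophic fungi in Arabidopsis, changed by -4.67 (SE 0.38). WRKY6 (TRINITY_DN23106_c0_g1) was an exception that rose, at 22.9, 72.1 and 37.2 TPM in PF_D, against 2.4, 1.1 and 2.66 TPM in PF_Z (log2 fold change 3.77, SE 0.38, adjusted p = 0.00012). Of 79 WRKY factors 8 were called higher and 33 lower (median -0.57), with 5 higher when PF_Z1 was left out. Their summed TPM was 1143 to 1406 in the PF_D libraries and 4104 to 5755 in the PF_Z libraries.

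The ERF family, named for ethylene response, gave a like picture with 9 of 86 members higher and 41 lower (median -1.27). DREB1D (TRINITY_DN20366_c1_g1), a regulator of cold tolerance in Arabidopsis, was at 346, 31.02 and 107 TPM in PF_D, against 2487, 2641 and 1709.8 TPM in PF_Z (log2 fold change -4.40, SE 0.71, adjusted p = 0.0015). DREB1B (TRINITY_DN20366_c1_g2) of the same cluster changed by -4.13 (SE 0.67) and ERF109 (TRINITY_DN23075_c0_g2) by -3.96 (SE 0.47), and PF_D2 was the lowest library for all 3. ERF003 (TRINITY_DN15781_c0_g1) had the largest rise of the family, to 223, 209 and 264 TPM in PF_D, against 6.59, 21.6 and 44.2 TPM in PF_Z (log2 fold change 3.55, SE 0.50, adjusted p = 0.00074). In the NAC family 9 of 72 were higher and 23 lower. NAC014 (TRINITY_DN25106_c0_g1) was at 121, 57.4 and 121 TPM in PF_D, against 603, 613 and 444 TPM in PF_Z (log2 fold change -2.53, SE 0.30, adjusted p = 0.00027). Ethylene itself is made by ACC synthase and ACC oxidase, and of 8 such unigenes 2 were called lower and none higher (1 higher without PF_Z3). The falls were both in ACS1 unigenes, of which the more abundant (TRINITY_DN24738_c0_g1) was at 5.19, 0.98 and 4.87 TPM in PF_D, against 148, 174 and 80.99 TPM in PF_Z (log2 fold change -4.96, SE 0.53, adjusted p = 0.00016). The oxidase ACO1 (TRINITY_DN21701_c1_g1), the most abundant of the list, was at 1246, 1719.5 and 1469 TPM in PF_D, against 719, 865 and 847 TPM in PF_Z, with a log2 fold change of 0.86 (SE 0.18) under the limit.

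Photosynthetic genes that passed the test were nearly all lower in the big bud, while carotenoid genes rose more often than they fell. The Rubisco small subunit gene RBCS-1 (TRINITY_DN14029_c0_g4), whose enzyme fixes carbon dioxide, was at 146, 20.4 and 129 TPM in PF_D, against 1976, 667 and 415 TPM in PF_Z (log2 fold change -3.46, SE 0.73, adjusted p = 0.0063). PORA (TRINITY_DN15072_c0_g2), which makes chlorophyllide in light, was at 33.2, 6.29 and 20.4 TPM in PF_D, against 205, 76.1 and 56.04 TPM in PF_Z (log2 fold change -2.47, SE 0.57, adjusted p = 0.011). Both genes were lowest in PF_D2 and highest in PF_Z1, and the spread within a stage was wide. In whole petals, fewer green cells and less RNA of these genes per cell cannot be told apart. Chlorophyll synthesis had 7 of 23 unigenes lower and none higher, and the Calvin cycle 10 of 21 lower and 1 higher, with 6 lower without PF_Z1 and 5 without PF_D2. Light-harvesting proteins summed to 478.2 to 1838 TPM in the PF_D libraries and 1558 to 5678 TPM in the PF_Z libraries, ranges that overlap. Their 13 falls among 28 became 7 without PF_Z1, 8 without PF_Z2 and 20 without PF_D1.

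Phytoene synthase (PSY), the first enzyme of carotenoid synthesis, had 2 unigenes that rose. The first (TRINITY_DN11999_c0_g1) was at 206, 203 and 207 TPM in PF_D, against 14.5, 30.7 and 26.7 TPM in PF_Z (log2 fold change 3.11, SE 0.24, adjusted p = 2.9e-05), and the second (TRINITY_DN26333_c0_g1) changed by 2.57 (SE 0.19). A unigene named PSY1 changed by -0.87 (SE 0.26) and was not called. A beta-carotene hydroxylase (TRINITY_DN20509_c1_g2), which makes xanthophylls, was at 126, 151 and 171 TPM in PF_D, against 10.3, 2.42 and 7.55 TPM in PF_Z (log2 fold change 4.43, SE 0.37, adjusted p = 3.9e-05), and it was listed at 0 in all PF_L libraries. The lycopene cyclase LUT2 (TRINITY_DN25766_c0_g2), the most abundant member, was at 279, 228 and 278 TPM in PF_D and 236, 139.6 and 189.6 TPM in PF_Z and was not called. Of 33 carotenoid unigenes 7 were higher and 3 lower, and 1 was lower without PF_Z1 or PF_D2.

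**Figure D4:**
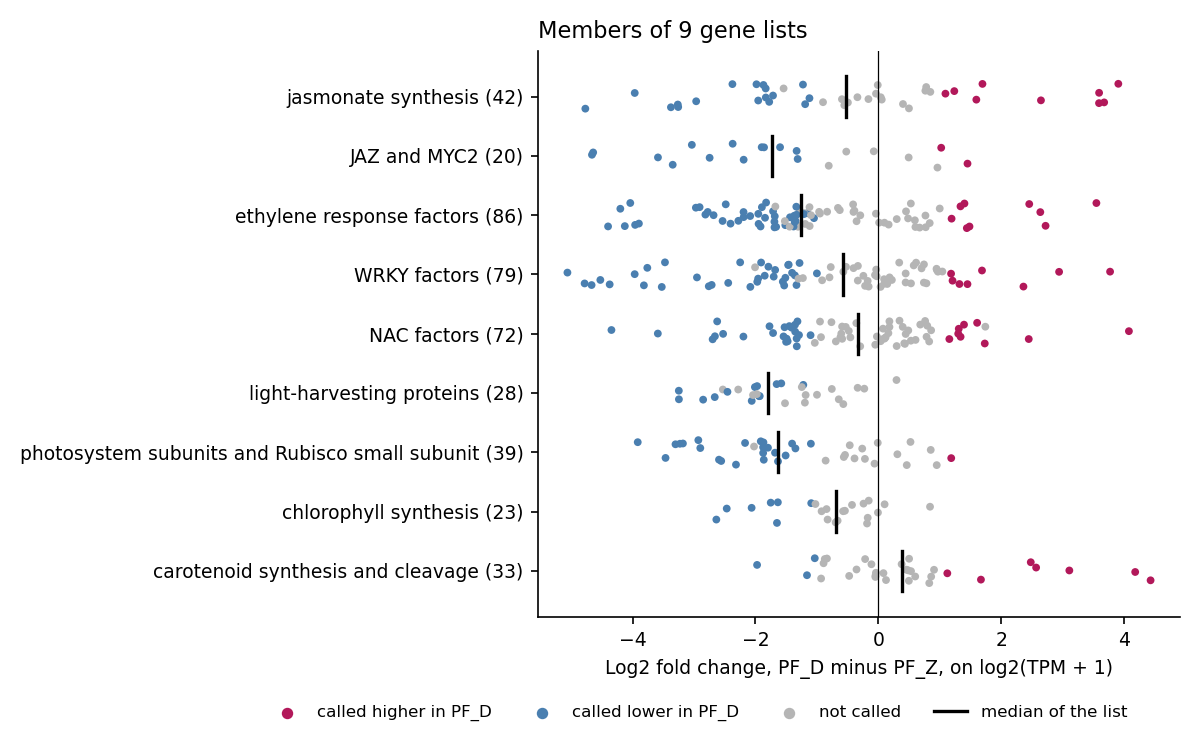
Each point is 1 tested member of a gene list (number of members in brackets), with its log2 fold change, PF_D minus PF_Z, on the x axis; black bars are list medians and colors show calls. The WRKY and ERF medians lie at -0.57 and -1.27, that of light-harvesting proteins at -1.79 and that of carotenoid genes at 0.38, while jasmonate synthesis (with the 9-lipoxygenases) has members far out on both sides.

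Genes of the petal surface made up another large group. The largest gain in TPM of the whole comparison was a non-specific lipid-transfer protein (TRINITY_DN14065_c2_g1), a small protein that binds lipids outside the cell. It stood at 11051, 12139.8 and 10498 TPM in PF_D, against 1514, 836 and 1022 TPM in PF_Z (log2 fold change 3.36, SE 0.23, adjusted p = 1.5e-05). Another lipid-transfer protein (TRINITY_DN17527_c0_g1) fell to 24.9, 13.6 and 43.2 TPM in PF_D, against 657, 626 and 769 TPM in PF_Z (log2 fold change -4.74, SE 0.33, adjusted p = 1.4e-05), and 6 of 26 members were higher and 8 lower. CUT1 (TRINITY_DN21888_c0_g1), a ketoacyl-CoA synthase that elongates wax precursors, was at 194, 319 and 254 TPM in PF_D, against 9.8, 14.6 and 33.96 TPM in PF_Z (log2 fold change 3.80, SE 0.37, adjusted p = 0.0001). The cutin hydroxylase CYP86A7 (TRINITY_DN20906_c2_g3) was at 2217, 2208 and 1485 TPM in PF_D, against 449, 244 and 475.3 TPM in PF_Z (log2 fold change 2.37, SE 0.31, adjusted p = 0.00047). GPAT6 (TRINITY_DN23297_c0_g2), which adds glycerol to cutin monomers of Arabidopsis petals, changed by 2.24 (SE 0.18). Of 52 wax and cutin enzymes 22 were higher and 7 lower (median 0.97), and their summed TPM was 6027 to 7322 in PF_D and 2145 to 2888 in PF_Z. KCS1 (TRINITY_DN17706_c0_g1) went against the group, at 0, 0 and 0.02 TPM in PF_D and 5.31, 11.04 and 7.66 TPM in PF_Z (log2 fold change -3.11, SE 0.24, adjusted p = 2.9e-05).

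GDSL esterases, a family that includes the enzyme that links cutin, held the largest loss in TPM. LTL1 (TRINITY_DN19295_c0_g3), a unigene of only 277 bp, was at 1674, 34.5 and 3617 TPM in PF_D, against 16403, 9541 and 18213 TPM in PF_Z (log2 fold change -4.57, SE 1.34, adjusted p = 0.03). On the log2 scale its PF_D libraries lay further apart than the stage means did, and the call was lost without any 1 of the PF_Z libraries and in a model of the 6 libraries alone. The unigene At5g33370 (TRINITY_DN19295_c0_g1) of the same cluster showed the same pattern, at 448, 8.24 and 804 TPM in PF_D and 3980.2, 3057 and 4147 TPM in PF_Z. In contrast, APG (TRINITY_DN16806_c0_g1) rose to 1229.8, 745 and 648 TPM in PF_D, against 116, 109 and 58.8 TPM in PF_Z (log2 fold change 3.20, SE 0.30, adjusted p = 7.4e-05). Of 68 GDSL esterases 8 were higher and 28 lower. The epidermal gene PDF1 (TRINITY_DN13966_c0_g1) was at 1.98, 0.99 and 0.63 TPM in PF_D, against 35.8, 76.6 and 72.6 TPM in PF_Z (log2 fold change -4.80, SE 0.30, adjusted p = 8.6e-06), while PDF2 (TRINITY_DN27737_c1_g1), a regulator of epidermal identity, was at 38.2, 51.7 and 40.96 TPM in PF_D and 24.7, 30.5 and 39.4 TPM in PF_Z and was not called.

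Markers of vascular tissue were more often lower than higher. Sieve element occlusion proteins, which plug phloem after wounding, had 7 of 9 unigenes lower, and some of these shared an assembly cluster. The largest fall was in an SEOB unigene (TRINITY_DN24911_c1_g1), at 7.32, 5.76 and 24.15 TPM in PF_D, against 413, 306 and 464 TPM in PF_Z. Its log2 fold change was -5.12 (SE 0.41, adjusted p = 3.1e-05), and SEOA (TRINITY_DN13210_c0_g1) changed by -4.95 (SE 0.28). Another SEOB unigene (TRINITY_DN13962_c0_g1) rose to 245, 553 and 319 TPM in PF_D, against 41.95, 28.6 and 46.4 TPM in PF_Z (log2 fold change 3.17, SE 0.28, adjusted p = 5.5e-05). Of 19 xylem genes 9 were lower and 2 higher. XCP1 (TRINITY_DN13126_c0_g1), a protease of dying xylem vessels, was at 1.98, 0.9 and 2.94 TPM in PF_D, against 13.5, 12.1 and 7.19 TPM in PF_Z (log2 fold change -2.04, SE 0.32, adjusted p = 0.0013). IRX7 (TRINITY_DN26893_c0_g1), a xylan enzyme, rose to 197, 151 and 149.7 TPM in PF_D, against 38.2, 33.7 and 56.3 TPM in PF_Z (log2 fold change 1.95, SE 0.28, adjusted p = 0.00089), and the summed xylem list was 276 to 326 TPM in PF_D and 180.0 to 214 TPM in PF_Z.

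Terpene synthases, which make scent compounds among others, had 10 of 18 unigenes called lower and none higher, while 2 that were not called had a higher mean in PF_D. Without PF_Z2 the falls numbered 6 and without PF_D3 they numbered 5. A germacrene D synthase (TRINITY_DN24179_c0_g1), the most abundant member, was at 80.2, 153 and 98.96 TPM in PF_D, against 148, 367 and 354 TPM in PF_Z. Its groups overlapped, and its call (log2 fold change -1.32, SE 0.44, adjusted p = 0.047) was lost without PF_Z2, PF_Z3, PF_D1 or PF_D3. TPS9 (TRINITY_DN26499_c0_g1), another terpene synthase, was at 13.97, 40.9 and 27.2 TPM in PF_D, against 86.7, 100.1 and 111 TPM in PF_Z (log2 fold change -1.94, SE 0.37, adjusted p = 0.0039).

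**Figure D5:**
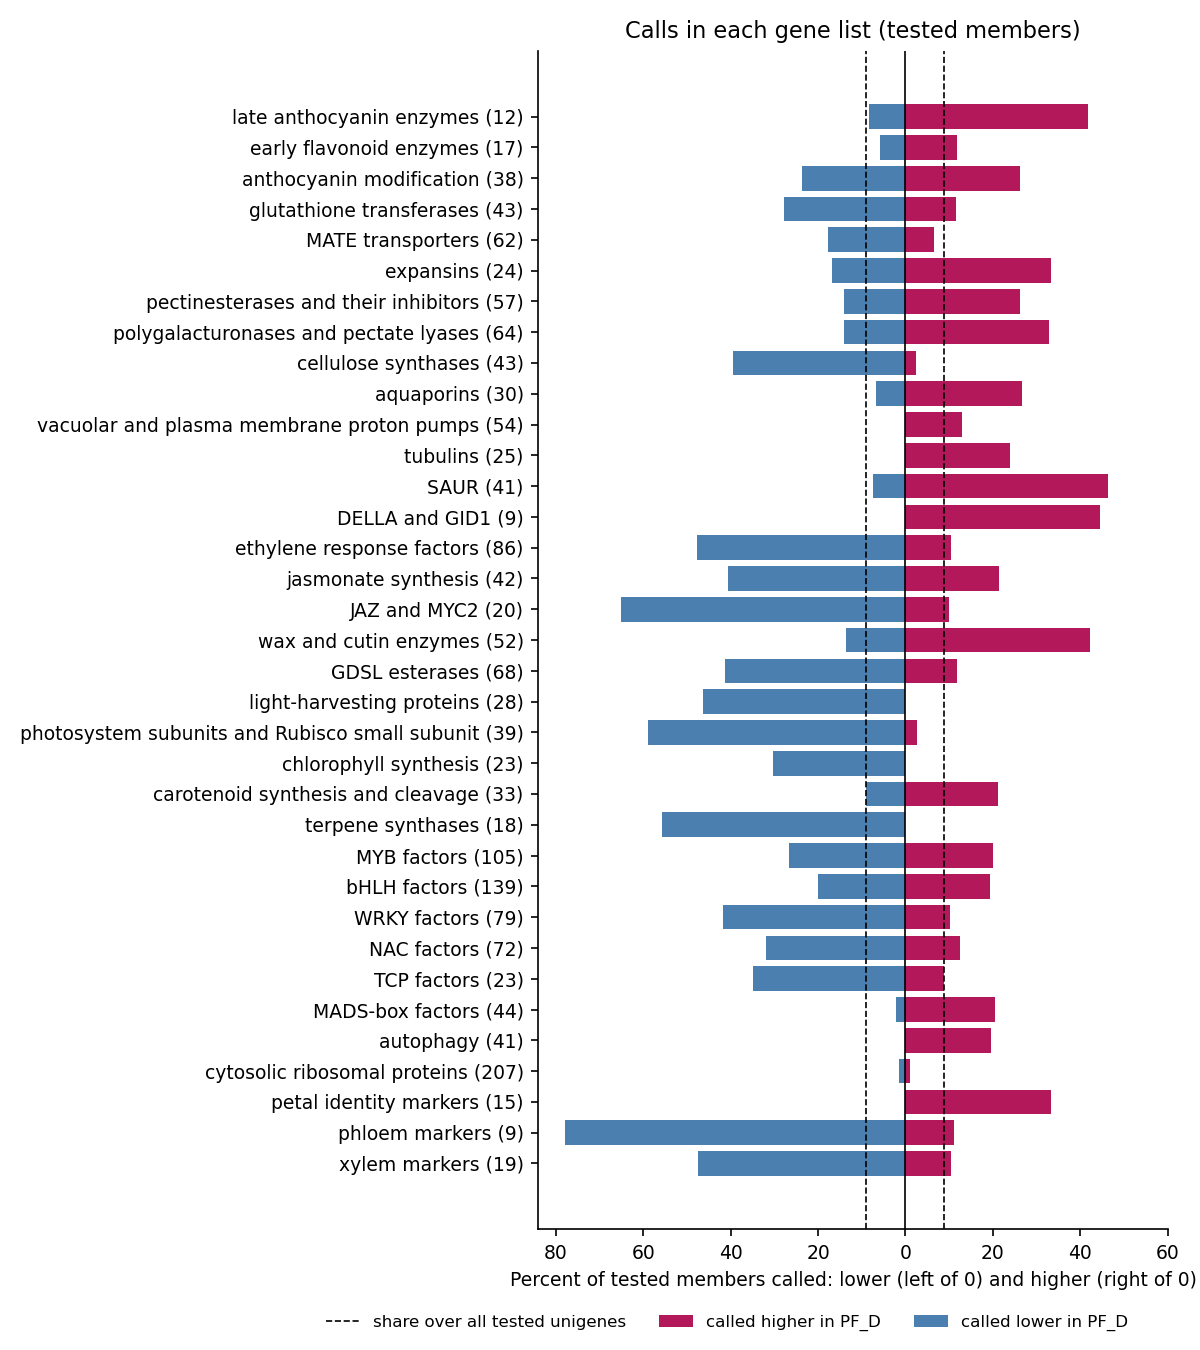
Percent of the tested members of 35 gene lists called higher (right of 0) or lower (left of 0) in PF_D, with the number tested in brackets; dashed lines mark the shares over all unigenes, 8.89% and 9.07%. SAUR genes (46.3%) and wax and cutin enzymes (42.3%) reach far to the right, JAZ and MYC2 genes (65.0%) and phloem markers (77.8%) far to the left, and ribosomal proteins stay near 0.

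Among developmental regulators, MADS-box genes rose in 9 of 44 unigenes and fell in 1, or in 2 without PF_Z1, PF_Z3 or PF_D1. AGL65 (TRINITY_DN24830_c0_g1), named for a pollen gene of Arabidopsis, was at 65.8, 98.2 and 62.5 TPM in PF_D, against 0.64, 1.02 and 1.25 TPM in PF_Z (log2 fold change 5.26, SE 0.23, adjusted p = 1.3e-06). An FBP1-like unigene (TRINITY_DN24830_c0_g2) of the same cluster moved alike, at 59.9, 87.3 and 61.1 TPM in PF_D and 2.22, 2.37 and 2.87 TPM in PF_Z, and reads may be shared between unigenes of a cluster. TCP4 (TRINITY_DN20204_c0_g1), which restrains cell division in Arabidopsis petals, was at 246, 282 and 233 TPM in PF_D, against 85.6, 86.4 and 123 TPM in PF_Z (log2 fold change 1.37, SE 0.18, adjusted p = 0.00045), although 8 of 23 TCP factors were lower and 2 higher. MIF2 (TRINITY_DN18374_c1_g1), a mini zinc finger, rose by 4.13 (SE 0.17) on the log2 scale. CYCU4-1 (TRINITY_DN20985_c0_g1), a cyclin of the U type, was at 179, 189 and 169.9 TPM in PF_D, against 1.29, 2.2 and 2.63 TPM in PF_Z (log2 fold change 5.92, SE 0.33, adjusted p = 4.6e-06). Mitotic cyclins and kinesins as a list split evenly, with 16 of 148 called higher and 16 lower, or 10 higher without PF_D2. Core histones and replication genes had 2 of 71 higher and 10 lower, with 6 higher without PF_Z3 and 1 without PF_Z1 or PF_Z2.

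Homeobox and SPL genes, which set organ identity and the timing of development, moved in both directions. A KNOX5-like gene (TRINITY_DN25768_c0_g2), of a family that keeps cells undifferentiated, was at 54.95, 65.6 and 77.5 TPM in PF_D, against 481, 230.4 and 251 TPM in PF_Z (log2 fold change -2.20, SE 0.26, adjusted p = 0.00031). ROC3 (TRINITY_DN28147_c1_g1), of the leucine-zipper class that acts in the epidermis, was at 0.89, 1.49 and 1.93 TPM in PF_D, against 28.6, 41.3 and 26.7 TPM in PF_Z (log2 fold change -3.77, SE 0.25, adjusted p = 1.2e-05). ATHB-12 (TRINITY_DN16333_c0_g6), named for a gene that responds to abscisic acid in Arabidopsis, rose to 26.4, 45.9 and 52.8 TPM in PF_D, against 3.79, 3.15 and 1.9 TPM in PF_Z (log2 fold change 3.41, SE 0.30, adjusted p = 5.3e-05). Of 103 homeobox genes 6 were higher and 19 lower, with 13 higher without PF_Z3. SPL4 (TRINITY_DN20217_c0_g1) was at 11.1, 2.01 and 12.9 TPM in PF_D, against 149, 145 and 225 TPM in PF_Z (log2 fold change -4.41, SE 0.48, adjusted p = 0.00018), whereas SPL3 (TRINITY_DN24529_c0_g1) changed by 1.79 (SE 0.33). Of 25 SPL genes 5 were higher and 7 lower, with 3 higher without PF_Z1 and 2 without PF_Z2 or PF_D2.

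Cytokinin promotes cell division, and its genes were more often lower than higher, at 10 against 2 of 46, with 4 higher without PF_D2. The list mixes genes that release the hormone, response regulators and dehydrogenases that break it down. No dehydrogenase was called, and the falls of ARR10, ARR12 and ARR18 came from 1 assembly cluster. LOG3 (TRINITY_DN11713_c0_g1), which releases the active hormone, was at 1.79, 0.52 and 1.57 TPM in PF_D, against 7.74, 11.4 and 14.2 TPM in PF_Z (log2 fold change -2.41, SE 0.27, adjusted p = 0.00022). The response regulator ARR1 (TRINITY_DN27575_c1_g1), the most abundant member, was at 49.2, 46.7 and 46.7 TPM in PF_D, against 85.7, 109 and 93.7 TPM in PF_Z, without overlap between the stages. Its log2 fold change of -0.996 (SE 0.15) was just under the limit. The amido synthetase gene GH3.5 (TRINITY_DN28010_c0_g1), described as JAR1, the enzyme that joins jasmonate to an amino acid, rose to 191, 300.4 and 235 TPM in PF_D, against 102, 60.1 and 82.6 TPM in PF_Z (log2 fold change 1.57, SE 0.22, adjusted p = 0.0007). AGP20 (TRINITY_DN13429_c0_g1), an arabinogalactan peptide of the cell surface, rose to 69.5, 31.9 and 35.3 TPM in PF_D, against 0.36, 0.64 and 0.96 TPM in PF_Z (log2 fold change 4.74, SE 0.31, adjusted p = 1.1e-05). Arabinogalactan proteins and extensins as a list split, with 19 of 75 higher and 18 lower.

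The protein-making machinery changed little by these limits. Of 207 ribosomal protein unigenes 2 were called higher and 3 lower, with a median of -0.29. Without PF_D1 1 was lower, and without PF_Z1, PF_Z2 or PF_D2 1 was higher. Their sum was 22721 TPM in PF_D and 28356 TPM in PF_Z. Genes of protein breakdown in the vacuole included several rises. RD21B (TRINITY_DN23540_c0_g1), a cysteine protease, was at 1223, 1288 and 1326 TPM in PF_D, against 233, 228 and 265 TPM in PF_Z (log2 fold change 2.40, SE 0.13, adjusted p = 4.4e-06), and 7 of 30 such proteases were higher and 3 lower. ATG8G (TRINITY_DN21919_c0_g2), a protein that coats autophagosomes, was at 315, 331 and 349.7 TPM in PF_D, against 129.8, 113 and 111 TPM in PF_Z (log2 fold change 1.49, SE 0.12, adjusted p = 4.1e-05). Autophagy genes rose in 8 of 41 unigenes and fell in none, and 15 rose without PF_Z3. ABC transporters rose in 36 of 188 unigenes and fell in 12. ABCG11 (TRINITY_DN27752_c1_g1), which exports wax and cutin monomers in Arabidopsis, was at 443, 516 and 423 TPM in PF_D, against 189, 149 and 213 TPM in PF_Z (log2 fold change 1.33, SE 0.17, adjusted p = 0.00045).

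The largest rise of any unigene with a gene name was that of SMT (TRINITY_DN17186_c0_g3), an O-methyltransferase named for an alkaloid enzyme. It stood at 1096, 1419 and 1755 TPM in PF_D, against 8.76, 10.2 and 9.69 TPM in PF_Z (log2 fold change 7.06, SE 0.18, adjusted p = 8.6e-08). Large rises were also seen in the zinc finger gene ZFP4 (TRINITY_DN12019_c0_g1), at 48.04, 93.5 and 109.7 TPM in PF_D, against 0.21, 0.09 and 0.33 TPM in PF_Z, and the RNA helicase gene Ddx47 (TRINITY_DN24377_c0_g2), at 136, 254 and 208 TPM in PF_D, against 2.99, 0.65 and 4.17 TPM in PF_Z. On the other side, the beta-glucosidase BGLU44 (TRINITY_DN26551_c1_g4) fell to 0.62, 0 and 0.72 TPM in PF_D, against 74.6, 48.2 and 39.7 TPM in PF_Z (log2 fold change -5.24, SE 0.26, adjusted p = 2.5e-06). IQM4 (TRINITY_DN25772_c0_g1), a calmodulin-binding protein, fell to 0.22, 0 and 0.13 TPM in PF_D, against 27.7, 39.8 and 38.8 TPM in PF_Z (log2 fold change -5.02, SE 0.34, adjusted p = 1.4e-05).

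Several of the largest changes were in unigenes without a gene name. The largest rise of all was in an uncharacterized protein unigene (TRINITY_DN13021_c0_g1) of 394 bp, at 383, 938 and 744 TPM in PF_D, against 2.3, 1.36 and 1.83 TPM in PF_Z (log2 fold change 7.85, SE 0.30, adjusted p = 7.6e-07). The largest fall of all was in a unigene like a glycine-rich cell wall protein (TRINITY_DN11449_c0_g3) of 271 bp, at 1.84, 0.43 and 2.38 TPM in PF_D, against 116, 314 and 311 TPM in PF_Z (log2 fold change -6.56, SE 0.40, adjusted p = 8.6e-06). The stages did not overlap in either of them. Other large gains had no protein match. The unigene TRINITY_DN18265_c0_g1 was at 2602, 3551 and 2156 TPM in PF_D, against 41.5, 19.1 and 36.2 TPM in PF_Z (log2 fold change 6.42, SE 0.31, adjusted p = 2.1e-06). The unigene TRINITY_DN16112_c1_g2 was at 1825, 2588 and 2947 TPM in PF_D, against 72.9, 37.8 and 68.1 TPM in PF_Z (log2 fold change 5.37, SE 0.39, adjusted p = 2e-05). Of all unigenes tested, 62.4% had a description, as had 62.2% of those called higher and 77.6% of those called lower. Among the losses, the metallothionein MET1 (TRINITY_DN15257_c0_g1), a metal-binding protein, was at 1331, 736 and 1377 TPM in PF_D, against 6066, 5635 and 5507 TPM in PF_Z (log2 fold change -2.37, SE 0.27, adjusted p = 0.00024). A late embryogenesis abundant protein (TRINITY_DN19056_c0_g1), of a family that protects cells from drying, was at 1033, 303 and 1055 TPM in PF_D, against 3194, 4093 and 1321 TPM in PF_Z. Its call (log2 fold change -1.90, SE 0.51, adjusted p = 0.021) was lost without PF_Z1, PF_Z2 or PF_D2.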

How the data were processed

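Petal RNA of 3 stages was sequenced in 3 biological replicates each, and the unigene set was assembled de novo from the reads. The authors deposited 1 table of TPM values per unigene and library, with lengths and annotations, in which the TPM had been made from the reads per transcript length and library total. The program that estimated TPM is not given in the sources used here. Tools named in the submitters' processing notes, with no role given, are StringTie 1.3.0, HISAT2 2.0 and Bowtie 0.12.2. The notes also name mm8 as a build, and no genome coordinates were used. The table holds no read counts, so the depth per unigene is unknown and no counting interval is given. The count-based test of the study could not be applied to TPM, and limma was used instead.

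Unigenes entered the fit if they reached 1 TPM in 3 or more of the 9 libraries. Values were taken as log2(TPM + 1) and fitted with limma 3.58.1 (R 4.3.3; trended empirical Bayes) on all 9 libraries, with stage as the only term. The contrast was PF_D minus PF_Z. Adjusted p-values are Benjamini-Hochberg over all 47924 unigenes, and calls needed a log2 fold change of at least 1 and an adjusted p under 0.05. All adjusted p-values in the text come from this fit. Each p-value and SE rests on a spread between replicates that was pooled over all 9 libraries and moderated across unigenes. The script was tested on simulated data. Figures were drawn with matplotlib 3.10.9.

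Gene lists were built from names, descriptions and pathway numbers. The lists and the genes described were chosen with earlier results of these data known, list patterns were trimmed of mismatched descriptions after seeing them, a count of jasmonate synthesis without 9-lipoxygenases was added after the values were seen, and no list was tested as a set. Named genes are the 10 largest rises and the 10 largest falls with a gene name and a mean of 10 TPM or more in the higher stage, the 8 largest gains and the 8 largest losses in TPM (both without overlap between the stages), per list the most abundant member and the called members that changed most in each direction, and the pigment genes of the study, plus some chosen after their values were seen. Not all named genes are described, and some uncalled ones were left out of the alternative settings. Primer sequences were copied from the supplement. Alternatives changed the amount added to the TPM (0.1 or 5), the filter (none or 5 TPM), the scaling (median ratio or quantile), the libraries fitted, the variance model, the replicate block, the adjusted p limit (0.01) and left out each library in turn.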

Additional observations from a re-analysis of the deposited data

How the results depend on the processing

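Of the 228 called genes followed, 195 were called alike under every one of the 20 alternative settings in which they were tested. Many of these genes were picked for the size of their change in the same fit, so they do not stand for all calls. Of all 8608 calls, 3768 were shared by the fit with 5 added to the TPM and 6544 by the fit without PF_D2. With 5 added to the TPM, 1788 unigenes were called higher and 1991 lower (3779 in all), as the larger amount shrinks the fold changes of low genes. At an adjusted p limit of 0.01, 2808 were higher and 2835 lower (5643 in all). With the filter raised to 5 TPM, fewer unigenes entered and 2474 were called higher (5759 in all). Leaving out 1 library gave 3421 to 4935 higher, 3547 to 4599 lower and 6968 to 9534 in all. The share of higher unigenes among the calls was 43.0% to 52.0% over these settings. The median of all unigenes lay between 0.008 (median ratio scaling) and 0.138 (without PF_Z3), so that fold changes should be read against a shift of this size. Uncalled values close to 0 changed sign for 3 of the genes followed when single libraries were left out. The kaempferol galactosyltransferase TRINITY_DN20511_c0_g3 (0.12 in the reported fit) ranged from -0.124 to 0.485, with -0.124 without PF_Z2, -0.07 without PF_D2 and -0.053 without PF_D3. GT7 (-0.08) ranged from -0.308 to 0.301, with 0.301 without PF_D1. AG (0.17) ranged from -0.013 to 0.495, with -0.013 without PF_Z2. The depth per unigene is unknown, so values of a few TPM should be read with care.

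Libraries of the 2 stages share replicate numbers, and the labels do not say whether same-numbered libraries share plants or a harvest. Deviations of same-numbered libraries from their stage means correlated at 0.017, -0.0963 and -0.0395. Libraries with different numbers correlated at -0.0891 to 0.139. So few pairs cannot show whether the libraries are paired, and the model treated them as unpaired. With a replicate block, 4083 unigenes were called higher and 4183 lower (8266 in all).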
